A study of Drosophila melanogaster with 2 samples.

Results

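The 8 genes described here encode the core enzymes and partner proteins of the miRNA and siRNA pathways of Drosophila melanogaster: drosha, pasha, Dcr-1, loqs and AGO1 on the miRNA side, and Dcr-2, r2d2 and AGO2 on the siRNA side. They were listed by name as pathway genes, with earlier results of these data known, and are 8 of 18277 annotated genes and of 13968 protein-coding genes on the major chromosomes. The data are chromatin immunoprecipitation and sequencing (ChIP-seq) peaks of the protein of CG3847, which was fused to enhanced green fluorescent protein (eGFP) in transgenic flies and precipitated with an antibody against GFP. All samples form 1 group, whole embryos aged 0 to 24 h, with 2 biological replicates, so no test between conditions exists and p-values are not given. Whole embryos of this age mix many cell types and stages, and a peak is a population value over all of them. Control libraries were not used here, so signal that depends on CG3847 and signal that does not cannot be told apart.

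A peak is described by its summit, the position of its highest point, and by its signal, a height value that the authors' peak caller wrote for it on an unstated scale. Signals rank peaks within 1 list, and between replicates they are read only beside the same ratio over all peaks. The authors deposited an optimal set and a conservative set made from both replicates, a set for each replicate, and longer ranked tables that also hold peaks below the threshold. The threshold is a global irreproducible discovery rate (IDR) of 0.01, a rate that is low where 2 sets of data both rank a peak high and alike. Weak peaks with like signals in both can have a high IDR. The optimal set holds 6148 peaks on the major chromosomes with a median signal of 132 and a range from 2.02 to 4117. The conservative set holds 5961, the set of replicate 1 holds 4445 and that of replicate 2 holds 4339. The ranked pooled table holds 123663 peaks with a median signal of 23.1. No source used here gives the read depth.

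Small RNAs of the miRNA and siRNA classes are made by RNase III enzymes and act inside Argonaute proteins. In the nucleus, Drosha and its RNA-binding partner Pasha form the Microprocessor, which crops hairpins out of primary miRNA transcripts. In the cytoplasm, Dicer-1 with a Loquacious isoform cuts the hairpin precursor to the miRNA duplex, and AGO1 is the main Argonaute that carries miRNAs to their targets. In flies a separate Dicer, Dicer-2, cuts long double-stranded RNA to siRNAs, and Dicer-2 with R2D2 loads them into AGO2, the slicing Argonaute of RNA interference and of antiviral defence. Another Loquacious isoform works with Dicer-2.

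The first 3 sequences below are the promoters of the genes that had no peak in the optimal set, and the last 2 lie beside or under a peak, so that the letters of both kinds can be read together. They were read from the Release 6 reference genome (dm6), are written 5′ to 3′ on the strand of the named gene and end 1 base before its first transcription start site (TSS), except the last, which is intronic. Dcr-1 lies head to head with CG6985, and the 58 bases between their start sites are given whole (chr3R:22741092-22741149, minus strand), with capitals for the letters GGTCACAC, the core of a promoter element known as Motif 1. AGO2 is represented by 100 bases (chr3L:15554013-15554112, plus strand), with capitals for CGATA, shared by the DNA replication-related element and the BEAF-32 site, in either orientation. loqs is represented by 100 bases (chr2L:13382552-13382651, plus strand), which hold none of the motifs searched. The 88 bases between Herp and r2d2 (chr2L:7800059-7800146, plus strand), where a strong peak ends, also hold none of the motifs. The last sequence is the intronic stretch under the summit in pasha (chr3R:31621813-31621919, plus strand), with capitals for the reverse complement of TATAAA.
Dcr-1 upstream: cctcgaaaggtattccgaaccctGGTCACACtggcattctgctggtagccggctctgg
AGO2 upstream: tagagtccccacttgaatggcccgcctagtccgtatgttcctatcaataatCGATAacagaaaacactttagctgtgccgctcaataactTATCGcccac
loqs upstream: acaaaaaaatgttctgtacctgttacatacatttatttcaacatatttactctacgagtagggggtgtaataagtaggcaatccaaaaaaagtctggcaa
r2d2 upstream: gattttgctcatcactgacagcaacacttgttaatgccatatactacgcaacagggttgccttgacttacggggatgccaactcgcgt
pasha intron: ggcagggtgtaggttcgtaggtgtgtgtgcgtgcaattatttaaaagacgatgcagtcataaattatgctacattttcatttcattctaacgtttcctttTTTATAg

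Of the 8 genes, 4 had an optimal summit within 500 bp of a TSS: r2d2, AGO1, drosha and Dcr-2. Over all protein-coding genes the share was 31.0%, or 4330 of 13968. With summits inside the gene span added, pasha joined them and the count was 5 of 8, against 35.4% of protein-coding genes. Dcr-1, loqs and AGO2 had no optimal peak by either rule. By branch, the start-site rule took 2 of the 5 miRNA genes and 2 of the 3 siRNA genes, and the wider rule took 3 of 5 and 2 of 3. Each branch therefore held genes with and without a peak, and with so few genes the counts are a description.

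The peaks of 3 genes, AGO1, r2d2 and drosha, were present in the optimal, conservative and both replicate sets. The conservative set thus held 3 of the 8 genes by either rule, against 30.3% of protein-coding genes near a TSS and 34.6% with the span added. The set of replicate 1 held the same 3 (background 23.8% near a TSS and 27.6% with the span). The set of replicate 2 held these 3 and Dcr-2 (background 26.4% and 29.5%). The peak in pasha was in the optimal set only.

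Other settings of the assignment left most of these counts in place. With a window of 200 bp the same 4 genes were counted near a TSS (24.5% of protein-coding genes) and the same 5 with the span (31.0%), and with 1000 bp likewise (34.4% and 37.6%). With the peak interval in place of the summit the counts were again 4 (32.7%) and 5 (37.3%). With 1 TSS per gene, its outermost, 3 genes were counted near a TSS (29.0%), AGO1 being the one lost, and 5 with the span (35.4%).

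**Figure D1:**
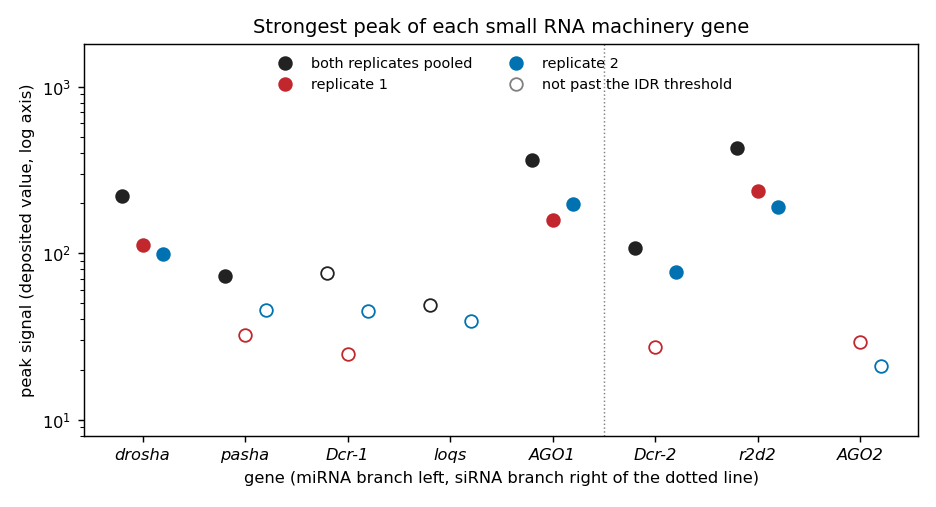
Deposited signal (log axis) of the strongest pooled peak of each gene (black) and of the peak overlapping it in replicate 1 (red) and replicate 2 (blue). A replicate can hold a stronger peak elsewhere in the gene, which is not drawn. For AGO2, without a ranked pooled peak, the strongest ranked peak of each replicate is drawn, and these lie at different positions. Open circles are values not past the IDR threshold. r2d2, AGO1 and drosha are filled in all 3 columns with pooled signals of 430.0, 362 and 221, whereas the Dcr-2 value of replicate 1 is open and AGO2 has no pooled value.

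Among the miRNA genes, drosha (FBgn0026722, 2R:7932429-7936840, plus strand) encodes the nuclear RNase III of the Microprocessor. Its peak spanned 2R:7932212-7932601, with the summit 22 bp upstream of its only TSS in intergenic sequence. The signal was 221 in the optimal set, 112 in the set of replicate 1 and 98.6 in that of replicate 2. It ranked 1562 among 6148 optimal peaks, above 74.6% of them, and at ranks 1678 and 1752 in the sets of replicates 1 and 2. The summits of the replicates lay close to it: that of replicate 1 was 1 bp downstream of the TSS and that of replicate 2 was 21 bp upstream. The IDR was 2.8e-05 in the pooled table and 5.6e-05 in the table that compares the replicates. The start site is shared with a neighbour, because rnh1, the gene of ribonuclease H1, begins 49 bp away on the other strand, and the pooled summit lay 27 bp from its TSS and 22 bp from that of drosha.

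pasha (FBgn0039861, 3R:31617977-31622217, plus strand) encodes the double-stranded RNA-binding partner of Drosha, called DGCR8 in mammals. Its optimal peak was not at a promoter of pasha. The peak spanned 3R:31621678-31622067, with its summit 2884 bp downstream of the last of 3 pasha start sites and 263 bp upstream of the TSS of kek6, a gene of the kekkon family of transmembrane proteins. The summit was in an intron within the 3′ UTR of 1 of 3 annotated pasha transcripts. That transcript ends 81 bp past the kek6 TSS, whereas the other 2 end 399 bp before the summit. The signal was 73.1, which ranked 5454 and was above 11.3% of optimal peaks. In the ranked tables of the single replicates the overlapping peak had signals of 32.2 and 45.4 for replicates 1 and 2, with IDRs of 0.385 and 0.0174, both above 0.01 and so outside the replicate sets. The IDR was 0.00487 in the pooled table, just inside the threshold, and 0.0123 between the replicates, just outside it.

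At the start sites of pasha the ranked pooled table held 4 peaks, none past the threshold. The strongest, with a signal of 61.6 and an IDR of 0.0472, had its summit 223 bp upstream of the third TSS in a coding exon of the longer transcripts. Replicate 1 had a signal of 33.9 there with an IDR of 0.0469, and the comparison of the replicates gave an IDR of 0.558 for the same row, from signals of 33.9 and 16.4. The most upstream TSS had a peak of 34.5 with its summit 119 bp downstream and an IDR of 0.680.

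Dcr-1 (FBgn0039016, 3R:22734007-22741091, minus strand) encodes the Dicer of the miRNA pathway, and had no peak in any of the 4 thresholded sets. Its strongest ranked peak spanned 3R:22740976-22741365, with the summit 80 bp upstream of the TSS. Since CG6985 begins 59 bp away on the other strand, this summit lay in the 5′ UTR of CG6985, 21 bp downstream of the TSS of that gene, just past the intergenic bases printed above. The pooled signal was 75.8, with 24.9 in replicate 1 and 45.1 in replicate 2. A total of 846 optimal peaks, or 13.8%, had a lower signal than this peak. Its IDR was 0.145 in the pooled table and 0.192 between the replicates, far from the threshold, and 0.485 and 0.697 in the tables of replicates 1 and 2. The pseudoreplicate signals behind the pooled row, from random splits of the pooled data, were 45.9 and 25.1. The nearest optimal peak was 4340 bp away at HP1c, a gene of the heterochromatin protein 1 family, with a signal of 154.

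loqs (FBgn0032515, 2L:13382652-13385671, plus strand), the gene of the RNA-binding partners of both Dicers, also had no thresholded peak. Its 6 transcripts share 1 TSS, and the ranked pooled table had a peak 30 bp upstream of it with a signal of 48.8 and an IDR of 0.373. Only 239 optimal peaks, or 3.89%, had a lower signal. Replicate 2 had a peak with a signal of 39.2, its summit 67 bp upstream and an IDR of 0.0313, whereas the ranked table of replicate 1 held no peak that overlaps it. In the comparison of the replicates the row drew on signals of 6.66 and 39.2 and had an IDR of 0.715. The value of 6.66 had no row in the ranked table of replicate 1, so the ranked tables do not list every peak. The nearest optimal peak was 1592 bp past the gene at CG7099, with a signal of 752.

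AGO1 (FBgn0262739, 2R:13943387-13958089, minus strand), the Argonaute of miRNAs, had the highest signal of the 5 miRNA genes. The gene is 14703 bp long and its 4 transcripts begin at 3 start sites. The peak, at 2R:13954010-13954250, lay at the innermost of these, 4064 bp into the gene, with the summit 102 bp upstream of that TSS and in an intron of the longer transcripts. The signal was 362 in the optimal set, 158 in the set of replicate 1 and 197 in that of replicate 2. These values ranked 676 of 6148, above 89.0% of optimal peaks, then 937 and 503 in the replicate sets. The IDR was 1e-05 in the pooled table and between the replicates, which is the lowest value these tables hold. The summit was closer to another start site than to that of AGO1: CG33155 and mRpL53, the latter a mitochondrial ribosomal protein gene, begin on the other strand 170 bp from the inner AGO1 TSS, and the summit was 68 bp upstream of their TSS.

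The other AGO1 start sites had ranked peaks below the threshold only. The first TSS, used by 2 transcripts, had a peak 75 bp upstream with a signal of 45.7 and an IDR of 0.148, and the second had one 143 bp upstream with a signal of 32.9 and an IDR of 0.727. The inner start site is annotated for 1 of the 4 transcripts.

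**Figure D2:**
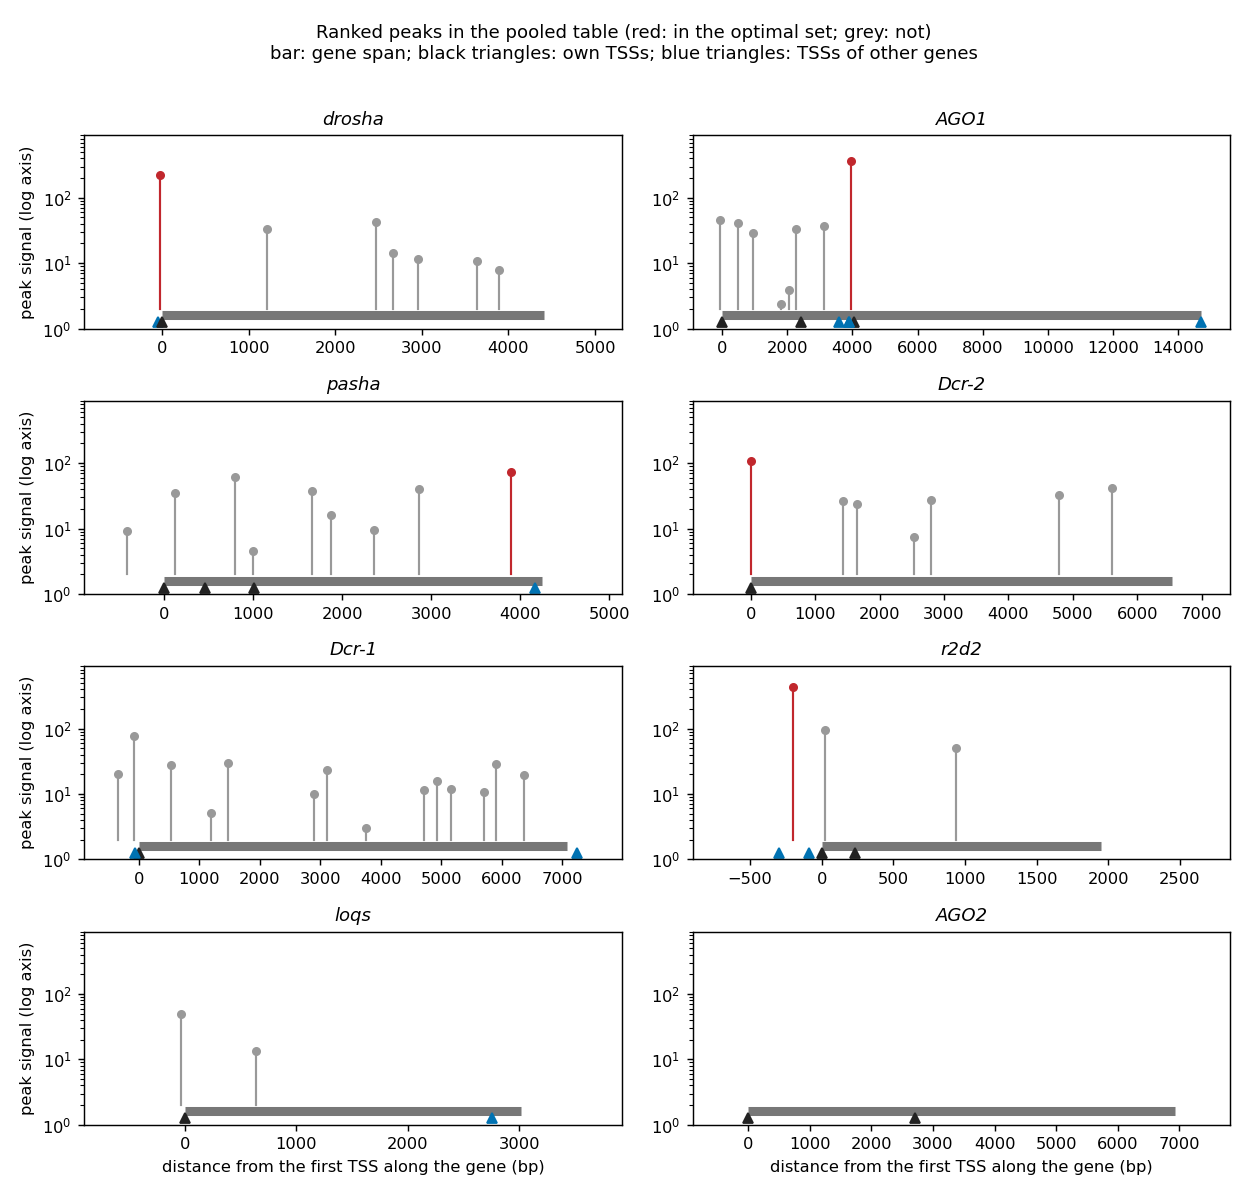
Ranked peaks of the pooled table at each gene, drawn at the distance of the summit from the first TSS along the gene (bp), with the deposited signal as height (log axis), optimal peaks in red and the rest in grey. Black triangles are the gene's own start sites and blue triangles those of other genes. The red peaks of AGO1, r2d2 and pasha stand nearer to a blue triangle than to a black one, whereas AGO2 has no ranked pooled peak.

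Among the siRNA genes, Dcr-2 (FBgn0034246, 2R:17574979-17581525, minus strand) encodes the Dicer that cuts long double-stranded RNA. Its peak, at 2R:17581327-17581716, had the summit 3 bp downstream of its only TSS, in its own 5′ UTR. No other gene shares this start site, since the nearest TSS of another gene, that of CG6484, was 2487 bp away. The signal was 107 in the optimal set, rank 3877, above 36.9% of optimal peaks. Replicate 2 had a signal of 77.2 at rank 2451 of its set, with the summit 21 bp upstream of the TSS and an IDR of 0.00032. Replicate 1 had 27.3 in its ranked table, with an IDR of 0.269, and so the peak was in the optimal set and that of replicate 2 only. The IDR was 0.00115 in the pooled table, where random splits of the pooled data are compared, and 0.168 between the replicates.

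r2d2 (FBgn0031951, 2L:7800147-7802098, plus strand), whose product binds double-stranded RNA beside Dicer-2, had the strongest peak among the 8 genes. The peak spanned 2L:7799798-7800116 and ended 31 bp before the gene, with the summit 197 bp upstream of its TSS. The signal was 430.0 in the optimal set, 235 in the set of replicate 1 and 190.1 in that of replicate 2, at ranks 471, 470 and 547. It was above 92.3% of optimal peaks, and its IDR was 1e-05 in the pooled table and between the replicates. The summit was in the 5′ UTR of Herp, a gene of an endoplasmic reticulum stress protein whose outer TSS lies 89 bp from that of r2d2 on the other strand, and it was 103 bp from an inner TSS of Herp.

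The set of replicate 1 held another peak at r2d2, at 2L:7800001-7800360, with its summit 34 bp downstream of the TSS in the 5′ UTR of r2d2. Its signal of 26.9 ranked 4206 of 4445. The row drew on pseudoreplicate signals of 125.8 and 35.4, the first of which also stands behind the main peak of replicate 1, so the row is not independent of it. The matching pooled row, 21 bp downstream of the TSS, had a signal of 94.1 but an IDR of 0.695, and the matching row of replicate 2 had 37.4 with an IDR of 0.797. In the comparison of the replicates its IDR was lower, 0.0627 from signals of 26.9 and 37.4, but still outside the threshold.

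AGO2 (FBgn0087035, 3L:15554113-15561042, plus strand), the Argonaute of siRNAs, was the member without any ranked peak near a TSS or in the span in the pooled table or in the comparison of the replicates. Of 13968 protein-coding genes, 1932 or 13.8% were likewise without one, and of the 1507 that are 5000 to 10000 bp long, as AGO2 with 6930 bp is, 106 or 7.03% were. The tables of the single replicates held 4 low peaks each, all below the threshold. The strongest of replicate 1 had a signal of 29.5 and an IDR of 0.143, with its summit 101 bp downstream of the first TSS. The strongest of replicate 2 had 21.1 and an IDR of 0.433 in a coding exon, 2555 bp downstream of the second TSS, and another with 18.4 lay 78 bp downstream of that TSS. No start site of AGO2 had a ranked peak in both replicates. The nearest optimal peak was 1876 bp past the gene at CG7739, with a signal of 141.

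Start sites were shared with other genes at some members and at many other genes with a peak. With 4 members the counts are a description. In 3 of the 4 with a summit near their TSS, namely AGO1, r2d2 and drosha, a TSS of another gene also lay within 500 bp of the summit. Among all 4330 protein-coding genes with such a summit, 2616 or 60.4% had the same. The other gene's TSS was the nearer one in 2 of the 4, AGO1 and r2d2, against 1237 or 28.6% of all. When each summit was counted only for the gene of its nearest TSS, a choice made after the data were seen, 2 of the 8 genes remained, Dcr-2 and drosha, against 22.9% of protein-coding genes near a TSS and 26.0% with the span added. Under that rule the AGO1 peak went to CG33155 and mRpL53, the r2d2 peak to Herp and the pasha peak to kek6. Peak positions give no measure of which of 2 neighbouring genes a signal belongs to.

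The replicates gave unequal signals at some of these peaks. Over the 6067 optimal peaks with a ranked peak in both replicates, the log2 ratio of the signal in replicate 1 to that in replicate 2 had a median of 0.18, with a 5th percentile of −0.77 and a 95th of 1.01, and 63.6% of peaks were higher in replicate 1. The ratio of Dcr-2 was −1.50, which is a 2.83-fold higher signal in replicate 2, and 21 peaks (0.346%) had a lower ratio. The other 4 lay between the 5th and 95th percentiles. The ratio was −0.50 at pasha and −0.32 at AGO1, both higher in replicate 2, and 0.19 at drosha and 0.30 at r2d2, both higher in replicate 1. The Dcr-2 signal therefore rested largely on replicate 2, and the cause was not tested.

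**Figure D3:**
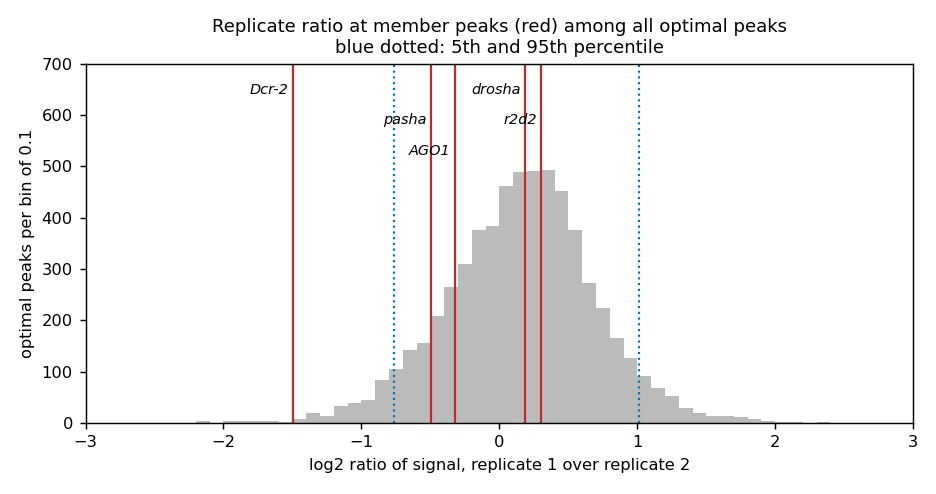
Histogram of the log2 ratio of signal, replicate 1 over replicate 2, for the 6067 optimal peaks found in both ranked tables (bins of 0.1), with the 5 peaks of the small RNA genes as red lines and the 5th and 95th percentiles as blue dotted lines. Dcr-2 at −1.50 stands left of the 5th percentile of −0.77, and the other 4 lie between the percentiles.

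The order of the genes by IDR was not that by signal throughout. AGO1 and r2d2 were at the lowest IDR in the tables, drosha followed, and Dcr-2 and pasha were inside the threshold in the pooled table but outside it between the replicates. Dcr-1 had a higher pooled signal than pasha, 75.8 against 73.1, but an IDR of 0.145 against 0.00487. Dcr-2 also had a higher signal than pasha, 107 against 73.1. Its IDR was lower than that of pasha in the pooled table, 0.00115 against 0.00487. Between the replicates it was higher, 0.168 against 0.0123. The signals of the 2 splits behind the pooled rows were unequal at Dcr-1, 45.9 and 25.1, and close at pasha, 36.5 and 38.0. At a stricter IDR of 0.001 between the replicates, AGO1, r2d2 and drosha remained, against 22.0% of protein-coding genes near a TSS and 25.1% with the span added.

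**Figure D4:**
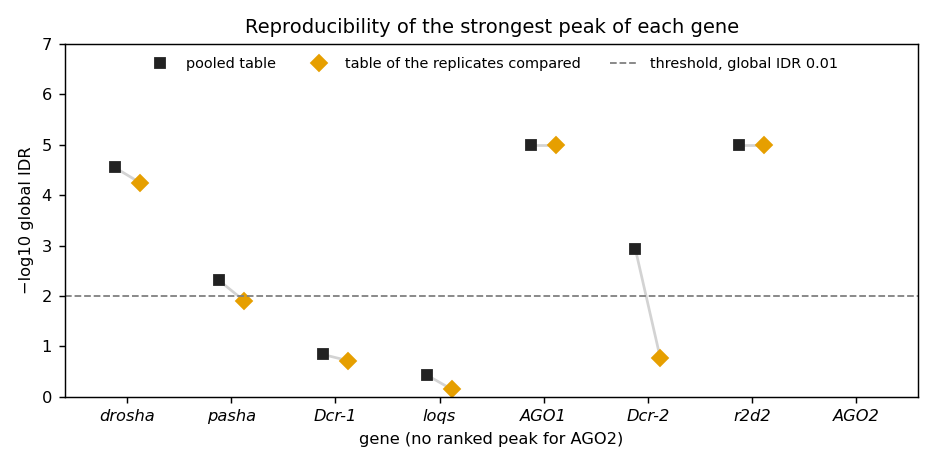
−log10 of the global IDR of the strongest peak of each gene in the pooled table (black squares) and in the table of the replicates compared (orange diamonds), with the threshold as a dashed line at an IDR of 0.01. AGO1, r2d2 and drosha lie above the line in both, Dcr-2 and pasha only in the pooled table, and Dcr-1 and loqs in neither.

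In all, the pooled ranked table held 50 peaks near a TSS or in the span of these genes, 5 past the threshold and 45 below it. Over the whole pooled table, 6319 of 123663 peaks were past the threshold, and with so few peaks the count is a description. Dcr-1 had 14, pasha 9, AGO1 8, Dcr-2 and drosha 7 each, r2d2 3, loqs 2 and AGO2 0. The 45 below the threshold had signals from 2.38 to 94.1 with a median of 23.6, close to the median of 23.1 over all ranked pooled peaks, and IDRs from 0.0472 to 0.855. Of these 45 summits, classed by any annotated gene, 32 were in coding exons, 7 in introns, 4 in 5′ UTRs and 2 in intergenic sequence. Some of these exons lie outside the member, as 337 bp upstream of Dcr-1 and 425 bp upstream of the first pasha TSS. The shares over all ranked peaks are not given here, so the classes are a description only. Ranked rows that lie close together can draw on the same component peak, as 22 of the 50 did, so they are not independent.

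Apart from the optimal peaks of AGO1 and pasha, which lie in introns, the pooled ranked peaks inside the spans were below the threshold, except that of Dcr-2 at its TSS. The 12 ranked peaks in the coding sequence of Dcr-1 had signals from 3.04 to 30.0. The 6 below the threshold inside Dcr-2 reached 42.0 and the 6 inside drosha reached 42.8, and both of these highest ones were in coding exons. At AGO1 the ranked peaks lay between the one just upstream of the first TSS and the optimal peak, and the pooled table had none in the rest of the span. The comparison of the replicates held 40 peaks at the 8 genes, 3 past the threshold, beside 6134 of 123297 over the whole table. The table of replicate 1 held 43 at these genes, with 4 past the threshold, beside 4575 of 91110 over the whole table. That of replicate 2 held 32, with 4 past the threshold, beside 4488 of 87999.

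Motifs of 7 kinds were searched on both strands in windows of 201 bp around the 5 optimal summits and in promoters from 250 bp upstream to 50 bp downstream of the first TSS of each gene. A match describes letters only, and the shorter motifs occur inside longer ones, as CGATA does in TATCGATA. Motif 1, with the letters GGTCACAC, was in the summit window of Dcr-2, and in 6.16% of all optimal summit windows. It was in the promoters of Dcr-1, 35 bp upstream, of Dcr-2, 71 bp upstream, and of pasha, 7 bp downstream, against 7.69% of protein-coding promoters. It thus occurred both where a peak was found and where none was.

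CGATA was in the summit windows of AGO1 and drosha (34.5% of all optimal windows) and in the promoters of Dcr-2, AGO2, loqs and drosha (47.3% of promoters). The full element TATCGATA was in no summit window of the 5 (6.33% of all) and in the promoter of loqs alone (9.36%), 218 bp upstream, before the bases printed above. GAGAG, the core of the GAGA factor element, was in the windows of AGO1 and pasha (21.7%) and in the promoters of Dcr-1 and AGO1 (29.7%), with 5 matches, some overlapping, at the outer promoter of AGO1, which had no optimal peak. CAGCTG was in the windows of AGO1 and r2d2 (11.9%) and in the promoter of r2d2 (17.6%). TATAAA was in the window of pasha (30.4%) and in the promoters of Dcr-1 and AGO2 (45.8%), and CACGTG was in none (2.47% of windows and 4.20% of promoters). ACAGTG, added after the data were seen, was in 17.9% of optimal windows and in 0 of these 5, and in the promoter of pasha (13.9% of promoters).

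Other genes of small RNA silencing were taken from 4 lists of 45 genes, all matched in the annotation, of which 3 lists hold partners, chaperones and decay effectors and the last holds the 3 Argonautes of the separate piRNA pathway. Of these, 28 had an optimal summit within 500 bp of a TSS, beside 31.0% of protein-coding genes. When each summit was counted for its nearest TSS only, 20 had one, beside 22.9%. The lists were chosen with earlier results of these data known, so these counts are a description.

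Among 18 partners and modifiers of the core proteins, 9 had a peak near a TSS, against 31.0% of protein-coding genes. The strongest was at Fmr1, the fragile X RNA-binding protein gene, with a signal of 345 and with 156 and 203 in replicates 1 and 2. It was followed by Cbp20, a nuclear cap-binding subunit, with 272, Ranbp21, the fly Exportin-5, with 243, and vig2 with 202. Peaks were also present near a TSS of Nbr, which trims the 3′ ends of miRNAs, Tailor, vig, Tudor-SN and trsn. Those of Tailor and Nbr, 482 and 426 bp upstream, were nearer to alphaTub84B (34 bp) and Noc2 (132 bp). The trsn peak was nearer to Pef, 21 bp against 31 bp, and nearest-TSS counting left 6 of the 18 genes. At vig the set of replicate 1 held no overlapping peak. The 9 genes without a peak near a TSS included gw, the GW182 partner of AGO1, Hen1, which methylates small RNA ends, Adar, Ars2 and Cbp80, the partner of Cbp20. Of these 9, Hen1 had an optimal summit inside its span, so that the wider rule took 10 of the 18 genes, and in the other 3 lists it added none.

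All 6 chaperone genes that serve Argonaute loading had a peak near a TSS, against 31.0% of protein-coding genes, and all 6 kept it under nearest-TSS counting (22.9%). Hsc70-4 had a signal of 344, Hsp83 343, p23 264 and Droj2 263, each in both replicate sets. Stip1 and Fkbp59 had 144 and 85.1, and the set of replicate 1 held no peak overlapping that of Fkbp59. Of 18 effectors of mRNA decay and repression, 12 had one, and 8 under nearest-TSS counting. The strongest were at PAN3 with 979, Pop2 with 495, tral with 398 and Not1 with 338. These encode parts of the deadenylase complexes and, for tral, a decapping-associated protein. The tral summit was nearer to the TSS of sti, 86 bp against 158 bp. Not3, Not11, me31B, Edc3, Ge-1 and pcm had none. Of the piRNA Argonautes, piwi had a peak 218 bp upstream of its TSS with a signal of 289.9, and 163 and 134 in replicates 1 and 2. aub and AGO3 had none. The piwi summit was nearer to the TSS of CG12253, 168 bp away, so that of the 5 Argonaute genes of the fly, AGO1 and piwi had an optimal peak within 500 bp of a TSS and in both cases another gene's TSS was nearer.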

How the data were processed

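ChIP-seq peaks of 2 replicates were taken as deposited on dm6. Per the file headers and labels, the authors made 4 thresholded sets and 4 ranked tables with IDR; fragments were sheared to 200 to 800 bp. The score, as the authors deposited it, is a transformed IDR with a maximum of 1000. The signal is a deposited caller value of unstated scale. For global IDR, the authors wrote −log10 values, capped at 5, in the ranked tables. The aligner and caller were not given in the sources used here.

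Summits (start plus deposited offset) were assigned to Ensembl release 115 genes within 500 bp of any TSS or in the span. At the members, a replicate's signal is that of its highest overlapping ranked peak (at least 1 bp). At the genes of the other lists it is that of the highest overlapping peak in the replicate's thresholded set. Python 3.11.15, numpy 2.4.6, pandas 2.3.3 and matplotlib 3.10.9 were used, and the assignment was tested on simulated peaks. The named genes were the 8 members, genes with a TSS within 500 bp of their summits, the nearest optimal peak, and up to 4 per list of highest signal; others are named beyond this rule, after their values were seen. The members and lists were chosen with earlier results of these data known. Alternatives were the conservative set, each replicate alone, a stricter IDR, windows of 200 and 1000 bp, 1 TSS per gene, the peak interval and another matching of replicate peaks. Nearest-TSS assignment and ACAGTG were chosen after seeing the data.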

Additional observations from a re-analysis of the deposited data

How the results depend on the processing

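The count of members with a peak near a TSS was 4, and 3 or 4 under each alternative of peak set, replicate, IDR, window or TSS positions. The count with the gene span added was 5, and it was 3 in the conservative set, 3 at an IDR of 0.001 and 3 to 4 with a replicate left out (3 in the set of replicate 1 alone). Counting a summit for its nearest TSS only, an assignment chosen after seeing the data, gave 2 by either rule. The strongest signals in the sets of single replicates were 158 to 197 for AGO1, 190.1 to 235 for r2d2 and 98.6 to 112 for drosha, lower than the pooled values, and the cause was not tested. The log2 replicate ratios had the same values under another matching of peaks. Of the 71 values recomputed, 60 were labelled the same and 11 moved, but this tally does not measure stability. Changes of window or TSS rule could not alter the signal of a peak, so those values were the same by construction. Where a set lost a peak, as the conservative set lost those of Dcr-2 and pasha, its signal was left out of the tally. No paired analysis was possible because the series has 1 group. Without read depth or a control, no limit of detection can be given for the genes without a peak.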
